A study of Homo sapiens with 24 samples.

Results

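H1975 cells kept in culture with PBS for 24 h were compared with H1975 cells kept with PBS for 6 h, which follows the control cultures of the study through time in the absence of the drug. The 6 arrays were chosen by their labels alone, 3 for each time point, out of 24 arrays in the series. The study as a whole exposed the human lung adenocarcinoma lines A549 and H1975 to 0.75 mg/ml Pirfenidone, an antifibrotic drug, or to the matching volume of PBS, its solvent, for 6 h or 24 h, with 3 samples in each of 8 groups, each hybridized to an Agilent array of its own. H1975 is an established line with a mutated EGF receptor gene, and all 6 samples are of this line, received PBS at the volume that matches 0.75 mg/ml of drug and no Pirfenidone, and differ in the time of culture. What an untreated culture does between both time points is the background against which any drug effect at 6 h or 24 h is read.

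The labels do not say whether the samples of a group were separate cultures, so p-values measure the spread between these samples, part of which may be technical. The samples pair by run, the day coded in the deposited files: run 1 holds the 6 h sample of replicate 1 and the 24 h sample of replicate 3, run 3 holds the 6 h sample of replicate 2 and the 24 h sample of replicate 1, and run 4 holds the 6 h sample of replicate 3 and the 24 h sample of replicate 2. Both arrays of run 1 shared a slide, as did both of run 4, whereas the 24 h array of run 3 lay alone on its slide and was scanned apart from its 6 h partner. Every 6 h array lay at place 2 of its slide and every 24 h array at place 4, so time in culture and place on the slide cannot be told apart. Runs 3 and 4 resembled each other more than either resembled run 1: the median absolute log2 difference between 2 arrays of the same time point was 0.104 at 6 h and 0.117 at 24 h for runs 3 and 4, and 0.281 to 0.314 where run 1 was involved. The scanner called 66.3% to 69.3% of the probes of an array well above background and 0 saturated. Signals are given as the log2 of the processed intensity relative to the 75th percentile of the array, so a value of 0 is the 75th percentile and a difference of 1 is a 2-fold change.

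Most lung epithelial markers were measured, and so were some markers of other cell types. Of 9 lung epithelial markers, 8 were well above background on all 6 arrays, among them EPCAM, CDH1, the keratins KRT7, KRT8, KRT18 and KRT19, and the lung lineage factor NKX2-1. Markers of other cell types were measured in part: 3 of 7 fibroblast, 4 of 6 leukocyte and 3 of 5 endothelial markers were well above background on all 6 arrays. DCN, LUM and COL3A1 of the fibroblast list, CD3E of the leukocyte list and KDR and TEK of the endothelial list were not well above background on any of the 6 arrays. Others were bright: COL1A1, COL1A2 and CD68 had mean log2 signals of 1.31, 1.26 and 1.35 at 6 h, beside 1.35 for CDH1 and -0.04 for NKX2-1. PDGFRB (-4.80) and PTPRC (-6.38) were dim, as were the epithelial markers NAPSA (-3.29) and SFTPB (-6.57).

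Several of the gene groups described below answer to signals from outside the cell. The aryl hydrocarbon receptor is a transcription factor that is activated by small aromatic compounds and drives CYP1A1, an enzyme that breaks such compounds down. NF-kB drives cytokines, chemokines and survival genes, and YAP with its partner TEAD drives matrix and cytoskeletal genes in spread cells at low density. Cells that stop growing lower the genes that build ribosomes and raise inhibitors of the cell cycle kinases.

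Between 6 h and 24 h in PBS, 292 of the 22688 probes tested passed in limma at a fold change of at least 2 and an adjusted p (Benjamini-Hochberg) up to 0.05 (1.29%), 227 of them higher and 65 lower (0.286%) at 24 h. They represent 247 named genes, 196 with a probe that rose and 51 with a probe that fell. With no limit on the fold change 2740 probes passed (12.1%), 1863 higher (8.21%) and 877 lower (3.87%). All 292 probes moved the same way in 3 of 3 runs, which was the case for 52.4% of all probes tested. The arrays of both time points did not overlap for 236 of them, beside 19.3% of all probes. The 292 were chosen on these same differences, so both comparisons are descriptions and no separate evidence. The median difference over all probes was 0.04 on the log2 scale. With run 3 left out 8 probes passed and with run 4 left out 7 did, beside 258 without run 1.

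The changes lay mainly among dim probes. Of 4018 probes with a mean log2 signal below -5, 154 passed, and of 7523 probes with a mean signal above 0, 9 passed. The probes that rose had a median log2 signal of -6.31 at 6 h and those that fell one of -3.18, beside -1.59 for all probes. On all 6 arrays 181 of the 292 were well above background, 129 of the rises and 52 of the falls. For 49 probes that rose, no 6 h array was well above background, so that only an approximate lower bound of their change could be set. This bound reached 2-fold for 7 of them, and for 3 it set no minimum rise. SPANXA2-OT1 and LINC00870 were well above background on 0 arrays at 24 h as well, so they were not measured at either time. For 5 probes that fell, no 24 h array was well above background, and for 0 of these the bound reached 2-fold. With another background correction, normexp on the mean spot signal, 0 probes passed (lowest limma adjusted p = 0.0805, 2101 probes at an unadjusted p below 0.05 against 6323 in the main setting). All 292 probes kept their direction there, and the median standard error of probes below -5 was 0.65 in place of 0.19.

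**Figure D1:**
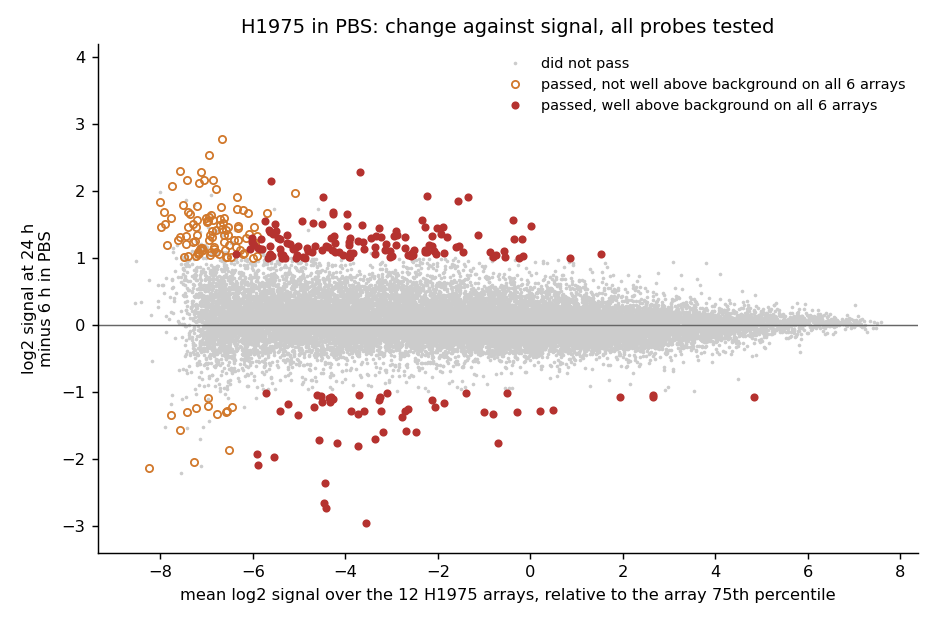
Difference between 24 h and 6 h in PBS on the log2 scale (vertical axis) against the mean log2 signal of the probe over the 12 H1975 arrays (horizontal axis), 1 point per probe tested. Filled points mark the 181 of 292 passing probes with a signal well above background throughout the 6 PBS arrays, and 9 of the 292 had a mean signal above the 75th percentile of the array.

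The largest fall was that of CYP1A1. Its log2 signal in runs 1, 3 and 4 was -2.67, -1.64 and -1.43 at 6 h and -4.86, -4.73 and -5.01 at 24 h. Every 24 h array lay below every 6 h array, and the 24 h arrays lay closer together than the 6 h arrays. The change was -2.95 ± 0.38 (SE, limma adjusted p = 0.00322), a 7.75-fold fall. The probe lies on chromosome 15 of hg19 from 75012562 to 75012621. Other genes were looked at as possible targets of the aryl hydrocarbon receptor, chosen by hand after the values were seen. Some fell and some did not pass. TIPARP, an ADP-ribosyltransferase that restrains the receptor, fell by 1.07 (limma adjusted p = 0.00211), CYP1B1, a further enzyme of the family, fell by 1.07 on each of its 2 probes, and ALDH1A3, which makes retinoic acid, fell by 1.28. CYP1A2, the neighbor of CYP1A1, stood at -0.36 (limma adjusted p = 0.192), with run 1 at 0.09, AHRR, the receptor's repressor, at -0.52 (limma adjusted p = 0.156) and NQO1 at -0.07 (limma adjusted p = 0.65), none past the threshold. The receptor gene AHR itself rose by 0.46 on one probe (limma adjusted p = 0.00447) and stood at 0.37 on the other (limma adjusted p = 0.0503).

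PTGS2, the inducible enzyme of prostaglandin synthesis, gave the steadiest of these falls. Its log2 signal in runs 1, 3 and 4 was -4.44, -2.60 and -2.59 at 6 h and -6.93, -5.43 and -5.24 at 24 h. Run 1 lay below both other runs at each time point, while the difference within a run was -2.49, -2.83 and -2.66. The change was -2.66 ± 0.08 (SE, limma adjusted p = 4.22e-06), a 6.31-fold fall (chromosome 1 of hg19, 186641469 to 186641528).

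Among secreted and survival factors, IL24, a cytokine of the IL10 family, had log2 signals of 0.64, 0.65 and 0.80 at 6 h and -0.85, -1.21 and -1.14 at 24 h in runs 1, 3 and 4. The groups were apart, as the choice required, and both probes of the gene fell, by 1.76 (SE 0.16, limma adjusted p = 0.00129) and by 1.70. BIRC3, an inhibitor of apoptosis and NF-kB target, had log2 signals of -1.52, -1.93 and -1.58 at 6 h and -3.59, -3.07 and -3.16 at 24 h. It fell by 1.59 (SE 0.20, limma adjusted p = 0.00297), with no overlap of the groups, again a condition of the choice. SERPINB2, an inhibitor of urokinase, fell by 1.59 as well (SE 0.10, limma adjusted p = 4.67e-04). BCL2A1, an antiapoptotic member of the BCL2 family, fell by 1.97 on the named probe (limma adjusted p = 0.00865). Its other probe stood at 0.21 (limma adjusted p = 0.0645) and was far brighter, with a mean log2 signal over the H1975 arrays of 2.28 against -5.54. The fall thus rests on 1 dim probe and was not seen on the bright one. NPPB, the precursor of a natriuretic peptide, fell by 1.93 and its other probe by 1.72. TFF1, a secreted trefoil factor of mucous epithelia, fell by 1.57.

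KRTAP2-3, a keratin-associated protein of hair, fell by 2.73 (SE 0.19, limma adjusted p = 6.80e-04), from -1.60, -2.43 and -2.33 in runs 1, 3 and 4 to -3.88, -5.11 and -5.54. KRT34, a hair keratin, fell by 2.36 (SE 0.29, limma adjusted p = 0.00297), from -3.67, -3.42 and -3.18 to -5.58, -5.95 and -5.83. Both groups of arrays were apart for each gene, as the choice required. The other keratins looked at on chromosome 17, chosen after these values were seen, moved in both directions. KRT17 fell by 1.32 and KRT14 by 1.29, the pseudogene KRT42P fell by 1.28 on one probe and stood at 0.13 on another, KRT15 rose by 0.43, and KRT13, KRT16, KRT19 and KRT10 did not pass (0.40, 0.36, 0.29 and 0.08). The sequences of these genes resemble each other, so their signals may be shared and single values are uncertain. The list of the 12 largest falls is completed by DNAH17, a dynein heavy chain of motile cilia, which fell by 1.76, and by HILS1, now listed as the histone pseudogene H1-9P, which fell by 1.81 on average but by 0.60 in run 1 against 2.27 and 2.57 in runs 3 and 4.

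**Figure D2:**
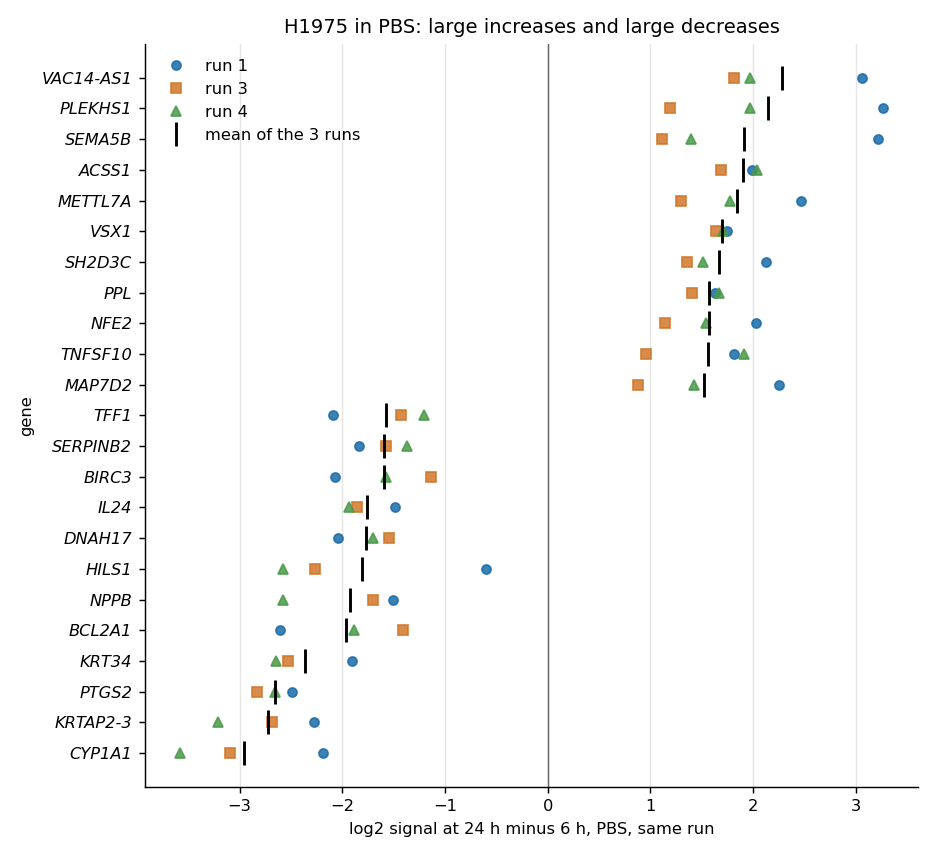
Difference between 24 h and 6 h in PBS on the log2 scale (horizontal axis) in each of the 3 runs for 11 of the 12 largest increases and for the 12 largest decreases (vertical axis), with the mean marked by a bar. All 3 runs lie on the same side of 0 for all 23 genes, which the choice of groups that do not overlap requires. The increases run from 0.88 in run 3 for MAP7D2 to 3.27 in run 1 for PLEKHS1.

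Among probes well above background on all 6 arrays with groups that did not overlap, the largest rise was that of VAC14-AS1, a noncoding transcript opposite to VAC14, by 2.28 (SE 0.27, limma adjusted p = 0.00254, chromosome 16 of hg19, 70807086 to 70807145). Its log2 signal went from -5.36, -4.79 and -4.71 in runs 1, 3 and 4 to -2.29, -2.98 and -2.75. The other probe of the gene stood at 0.78. PLEKHS1, an adaptor with a pleckstrin homology domain, rose by 2.15 (SE 0.49, limma adjusted p = 0.0264), and SEMA5B, a semaphorin, by 1.91. The other probes of both genes stood at 1.56 and 1.97.

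The other rises included enzymes and a transcription factor. METTL7A (now TMT1A), a thiol methyltransferase of the endoplasmic reticulum and lipid droplets, had log2 signals of -3.20, -2.03 and -2.16 at 6 h and -0.73, -0.74 and -0.38 at 24 h in runs 1, 3 and 4. The 24 h arrays agreed more closely than the 6 h arrays, and the rise was 1.85 (SE 0.28, limma adjusted p = 0.00587), or 3.60-fold. ACSS1, the mitochondrial acetyl-CoA synthetase, rose by 1.91 (SE 0.12, limma adjusted p = 4.58e-04), from -6.26, -4.85 and -5.11 to -4.27, -3.16 and -3.07. Run 1 was the lowest at both times, and its second probe stood at 1.14. NFE2, a transcription factor best known from blood cells, rose from -1.79, -0.99 and -1.16 to 0.24, 0.16 and 0.38, a change of 1.57 (SE 0.24, limma adjusted p = 0.00588).

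TNFSF10, which encodes the death ligand TRAIL, rose by 1.56 on one probe (SE 0.20, limma adjusted p = 0.00336) and by 1.51 on its brighter probe. PPL, the desmosomal and cornified envelope protein periplakin, rose by 1.57 (SE 0.14, limma adjusted p = 0.00125). SH2D3C, an adaptor of integrin signaling, rose by 1.67, MAP7D2, a microtubule-associated protein, by 1.52, and VSX1, a homeobox factor of the retina, by 1.70. The other 2 probes of VSX1 stood at 0.88 and 0.10. The probe at 0.10 was by far the brightest, with a mean log2 signal of 3.55 against -4.26 for the named probe, so the rise rests on dim probes.

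**Figure D3:**
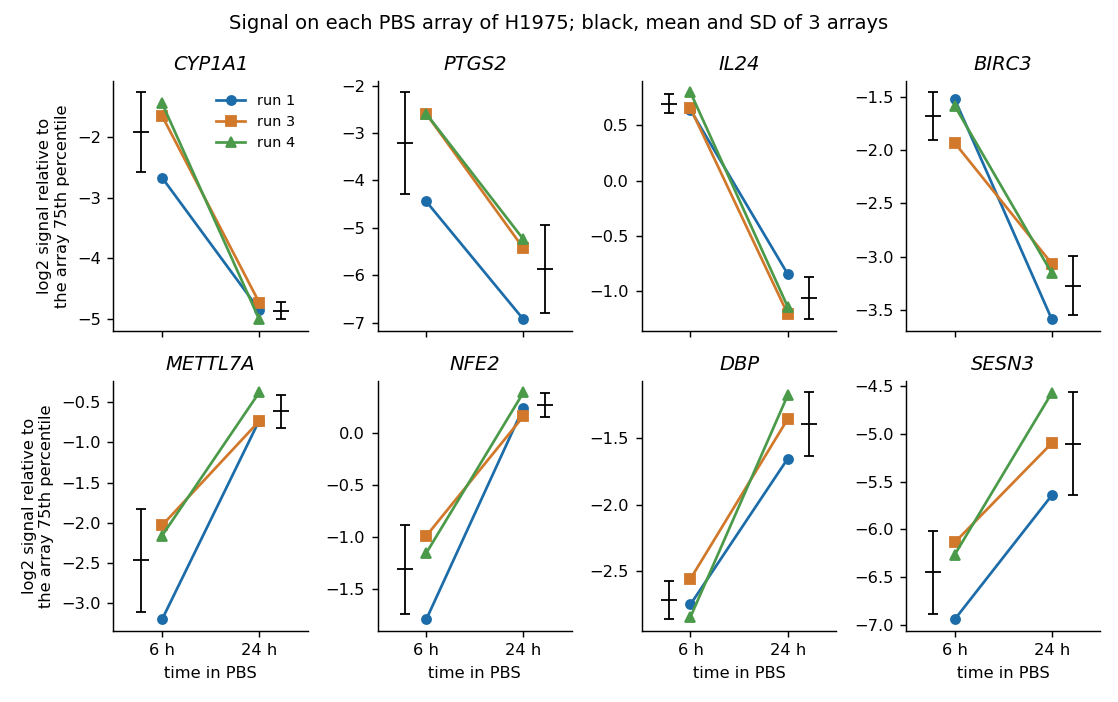
Log2 signal relative to the 75th percentile of the array (vertical axes, which differ between panels) on each PBS array of H1975 for 8 genes at 6 h and 24 h, with a line for each run and the mean and SD of 3 arrays in black. The 6 h and 24 h arrays do not overlap for any of the 8 genes, which was a condition of the choice for all but DBP and SESN3. Run 1 lies below runs 3 and 4 at both times for PTGS2.

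The NF-kB and cytokine list moved furthest of the 33 gene lists examined, and moved down. A gene is represented in a list by its brightest probe. Of 30 genes, 27 were tested, with a median change of -0.43 beside 0.03 over the 15026 genes tested, of which 20.8% had groups that did not overlap. The fold limit was passed by 5 genes that fell and 1 that rose, where 1.40% of all genes passed (0.280% lower, 1.12% higher), and at the adjusted p alone 12 fell and 2 rose, where 4.03% of all genes were lower and 9.30% higher. CXCL8, a neutrophil chemokine, had log2 signals of -5.44, -5.70 and -5.31 at 6 h and -8.88, -6.71 and -6.46 at 24 h in runs 1, 3 and 4. The 24 h arrays lay below the 6 h arrays, and the 24 h array of run 1 was not well above background, so its value is no exact level. The fitted change was -1.87 (limma adjusted p = 0.032), with run differences of -3.44, -1.02 and -1.15, and -1.17 without that array (limma adjusted p = 0.0306) and -0.54 with the normexp correction, where it did not pass. IL6, the acute phase cytokine, went from 0.14, -0.19 and -0.13 to -1.79, -1.06 and -1.22, a fall of 1.30 (SE 0.32, limma adjusted p = 0.0332) with the groups apart. BIRC3 has been described above, and the other falls past 2-fold were those of CSF2, a growth factor of myeloid cells, by 1.28, and TNFAIP3, the feedback inhibitor A20, by 1.04. Among the falls below 2-fold were IL11 (-0.98), RELB (-0.93), CCL5 (-0.90) and NFKB1 (-0.43). TNFSF10 rose against the list, and TNFAIP2 did so by 0.36. With any 1 of the 6 arrays left out, between 4 and 10 genes fell at the adjusted p in place of 12.

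The sequences upstream of 4 of the genes that fell past 2-fold are shown because NF-kB sites are known in the promoters of such genes. The 250 bases before the gene start are from RefSeq (GRCh38.p14), 5′ to 3′ on the strand of the gene, and capitals mark matches on either strand to the NF-kB consensus or to TGANTCA, the site of AP-1. Both motifs were chosen after the values had been seen. For CXCL8 the stretch is chr4:73740319-73740568 on the plus strand, for BIRC3 chr11:102317234-102317483 on the plus strand, for TNFAIP3 chr6:137867009-137867258 on the plus strand, and for IL6 chr7:22726950-22727199 on the plus strand.
CXCL8: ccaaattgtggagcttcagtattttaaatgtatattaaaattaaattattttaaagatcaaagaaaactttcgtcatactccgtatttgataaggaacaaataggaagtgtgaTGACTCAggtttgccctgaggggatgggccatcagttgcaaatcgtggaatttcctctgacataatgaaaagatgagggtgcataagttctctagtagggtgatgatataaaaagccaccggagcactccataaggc
BIRC3: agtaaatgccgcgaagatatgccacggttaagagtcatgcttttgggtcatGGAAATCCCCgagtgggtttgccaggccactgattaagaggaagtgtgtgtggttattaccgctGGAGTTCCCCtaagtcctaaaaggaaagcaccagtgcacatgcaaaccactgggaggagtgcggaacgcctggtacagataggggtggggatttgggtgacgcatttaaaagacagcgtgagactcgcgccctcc
TNFAIP3: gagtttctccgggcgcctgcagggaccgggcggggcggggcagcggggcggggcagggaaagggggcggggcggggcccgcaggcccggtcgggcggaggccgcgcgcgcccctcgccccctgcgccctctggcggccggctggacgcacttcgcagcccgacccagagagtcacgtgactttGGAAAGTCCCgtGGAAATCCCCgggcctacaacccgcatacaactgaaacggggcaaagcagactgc
IL6: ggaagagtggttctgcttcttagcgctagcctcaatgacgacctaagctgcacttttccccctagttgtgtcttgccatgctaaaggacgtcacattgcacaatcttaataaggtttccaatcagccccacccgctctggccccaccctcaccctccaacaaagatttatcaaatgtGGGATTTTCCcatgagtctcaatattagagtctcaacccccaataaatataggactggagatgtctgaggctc

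BIRC3 holds matches to the NF-kB consensus at 199 to 190 and 135 to 126 bases before its start, TNFAIP3 at 67 to 58 and 55 to 46, and IL6 at 73 to 64. CXCL8 holds a TGANTCA match at 137 to 131 bases and no match to the strict NF-kB consensus in this window, and CSF2 holds neither. Of the 24 promoters found for the list, 11 held the NF-kB consensus (45.8%), beside 5.21% of all 35116 promoters of the table, and 4 held TGANTCA (16.7%), beside 6.57%. Among genes picked by their change the shares were lower. The NF-kB consensus was in 1 of 8 promoters found for the 12 largest falls (12.5%). For the 12 largest rises it was in 1 of 9 (11.1%). TGANTCA was in 1 of 8 and 0 of 9. The NF-kB and cytokine list was drawn up from genes known to answer to NF-kB, and a match is a description of letters and not a measured site.

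Targets of YAP and TEAD were mostly below 0. Of these 22 were tested, 17 of them lower, with a median of -0.30, and 8 fell (36.4%, beside 4.03% of all genes) and 1 rose at the adjusted p, though 0 passed the fold limit. The matrix glycoprotein THBS1 fell by 0.90 (SE 0.14, limma adjusted p = 0.00713), the matricellular factor CCN2, listed on the array as CTGF, by 0.88, its relative CCN1 by 0.80, the kinase NUAK2 by 0.69 and tissue factor F3 by 0.55. CCN2 fell in each run, from -0.84, 0.12 and 0.07 in runs 1, 3 and 4 to -2.22, -0.45 and -0.63, but the groups overlapped since run 1 was lower throughout. With 1 array left out, 2 to 6 of these genes fell at the adjusted p. The TGFβ response and matrix lists were more mixed. Of 27 genes of the TGFβ response list, 16 below 0 and 11 above, 4 fell (14.8%) and 0 rose at the adjusted p, among the falls TAGLN, SMAD7 and SNAI2, and the list median was -0.07. In the mesenchymal and matrix list of 29 genes, 18 below 0 and 11 above, with a median of -0.07, 5 fell (17.2%), among them the collagenase MMP1 (-0.63), and 0 rose.

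Growth signaling genes moved in both directions. Among 25 immediate early and serum response genes 1 fell and 2 rose at the adjusted p, with ZFP36, which destabilizes cytokine messages, at 0.56 (limma adjusted p = 0.0056), EGR2 at 0.49 and IER3 at -0.51, a share near that of all genes (9.30% higher and 4.03% lower). FOSL1 stood at -0.52 (limma adjusted p = 0.091). Among 19 genes of ERK feedback 3 fell (15.8%) and 1 rose, the rise being SPRY1 by 0.61, and the list median was -0.22. In the EGF family 5 of 13 genes tested passed at the adjusted p, 3 higher (23.1%) and 2 lower (15.4%). ERBB3 rose by 0.89 (limma adjusted p = 0.00203), BTC by 0.72 and ERBB2 by 0.47, while HBEGF fell by 0.59 and EGFR by 0.41.

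Ribosome biogenesis genes were mostly lower, by less than 2-fold. Of 32 genes tested 30 were below 0, where 43.7% of all genes were, and the median was -0.34. Runs 1, 3 and 4 gave medians of -0.46, -0.22 and -0.25. At the adjusted p 15 genes fell (46.9%, beside 4.03% of all genes) and 0 rose, and 0 passed the fold limit. MYBBP1A, a nucleolar regulator of RNA polymerase I, had log2 signals of 1.68, 1.33 and 1.34 at 6 h and 0.93, 0.94 and 0.92 at 24 h in runs 1, 3 and 4. It fell by 0.52 (SE 0.11, limma adjusted p = 0.0174), as did the nucleolar helicase DDX21, and in both genes the groups were apart. With 1 array left out 0 to 5 genes fell at the adjusted p in place of 15, and with slide in place of run as the block 3 did.

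Of 24 genes in the list of cell cycle inhibitors and quiescence 10 rose at the adjusted p (41.7%, beside 9.30% of all genes), 3 of them past 2-fold, and 0 fell. The median was 0.23, and 7 of the 24 lay below 0. SESN3, a FOXO target that restrains mTORC1, had log2 signals of -6.94, -6.14 and -6.26 at 6 h and -5.64, -5.10 and -4.57 at 24 h in runs 1, 3 and 4. It rose by 1.34 (SE 0.13, limma adjusted p = 0.0013), with the groups apart. YPEL3, linked to growth arrest, rose by 1.12 (limma adjusted p = 0.00161) and CDKN1C, the CDK inhibitor p57, by 1.01 (limma adjusted p = 0.00191), from -0.58, 0.83 and 0.76 to 0.43, 1.89 and 1.72. In CDKN1C the groups overlapped because run 1 was lower throughout. The rises below 2-fold included the PI3K inhibitor PIK3IP1 (0.96), CCNG2 (0.87), CDKN2B (0.71), FOXO4 (0.51) and RBL2 (0.31). With 1 array left out, 4 to 6 of these genes rose at the adjusted p.

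The genes of the cell cycle itself passed in almost no case. Of 43 S phase genes 0 rose and 1 fell at the adjusted p, namely POLR1B, which also belongs to the ribosome list, with a median of -0.12. Of 54 G2/M genes 0 passed at the adjusted p in limma, with a median of -0.11 and 42 of them below 0, while at an unadjusted p under 0.05 in limma 1 was higher and 3 were lower. The largest change of the S phase list was that of RRM2, a subunit of ribonucleotide reductase, at -0.59 (limma adjusted p = 0.16), and of the G2/M list that of CDK1, the mitotic kinase, at -0.40 (limma adjusted p = 0.171). The 18 genes that the study looked at gave a median of -0.13. BIRC5, which encodes Survivin, stood at -0.13 ± 0.21 (SE, limma adjusted p = 0.742), MKI67 at -0.01 ± 0.15 (limma adjusted p = 0.973), AURKB at -0.27 ± 0.22 (limma adjusted p = 0.462) and SMAD3 at 0.03 ± 0.08 (limma adjusted p = 0.889). Of 56 replication histone genes 50 were above 0, the median was 0.12, and 1 passed at the adjusted p, HIST1H2AG at 0.68. Promoters of the G2/M list held CCAAT in 66.7% and TTTGAA or TTCGAA in 55.6% of 45 cases, beside 32.0% and 14.3% of all promoters. Promoters of the S phase list held TTCGCGC in 6.06% and TTGGCGC in 27.3% of 33 cases, beside 1.85% and 2.56%, counted on both strands of the 250 bases before the start. Each motif was paired with its list because it is known for such genes. These shares, and those of the clock, cholesterol and amino acid stress lists below, describe the lists and not the change with time.

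Genes of the circadian clock moved in both directions. Out of 17 tested, 3 rose (17.65%, beside 9.30% of all genes) and 3 fell (17.65%, beside 4.03%) at the adjusted p. DBP, an output gene of the clock, had log2 signals of -2.75, -2.56 and -2.84 at 6 h and -1.66, -1.36 and -1.18 at 24 h in runs 1, 3 and 4. It rose by 1.32 (SE 0.12, limma adjusted p = 0.00127), and all 24 h arrays lay above the 6 h arrays. BHLHE41, a repressor of the clock, rose by 0.70. The core repressors PER2 (-0.58), CRY1 (-0.44) and CRY2 (-0.41) were lower at 24 h, and a link between these changes and DBP was not tested. The E-box letters CACGTG were in 6 of 18 promoters of the list (33.3%), beside 6.35% of all promoters.

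Among nutrient and oxygen responsive genes the hypoxia list stood highest, with a median of 0.21 over 23 genes, of which 6 rose (26.1%, beside 9.30% of all genes) and 1 fell at the adjusted p, all below 2-fold. NDRG1, a stress gene of growth arrest, rose by 0.92 (SE 0.20, limma adjusted p = 0.023), carbonic anhydrase CA9 by 0.80, EGLN3 by 0.76, ANKRD37 by 0.72, BNIP3 by 0.68 and CA12 by 0.58, while LOX fell by 0.39. In glycolysis, 2 of 20 genes rose, near the share of all genes, ENO2 by 0.96 and ALDOC by 0.54, and the glucose transporter SLC2A3 of the glucose sensing list rose by 0.79. Of 24 genes of cholesterol synthesis and uptake 5 rose (20.8%) and 0 fell, among them the reductase TM7SF2 by 0.99 (limma adjusted p = 8.75e-04), LSS by 0.37, STARD4 by 0.35 and the regulator SREBF2 by 0.33, with a list median of 0.11. The letters CACCCCA of the sterol element were in 22.2% of 18 promoters of this list, beside 7.0% of all. In fatty acid synthesis, SREBF1 rose by 0.67, and 3 of 16 genes rose in all (18.8%), while 9 of 16 lay above 0, beside 56.3% of all genes. ANGPTL4, an inhibitor of lipoprotein lipase, fell by 1.05 (SE 0.20, limma adjusted p = 0.0149), from 2.87 ± 0.61 to 1.82 ± 0.34 (SD of 3 arrays), against a list of 15 genes of lipid catabolism in which PDK4 and MYLIP rose.

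The stress response lists had medians near 0 in PBS. The list of amino acid stress genes (ATF4 targets) had a median of 0.04 over 31 genes. At the adjusted p 2 were higher (6.45%, beside 9.30% of all genes) and 2 lower (6.45%, beside 4.03%). DDIT4, an inhibitor of mTORC1, rose by 0.94 (SE 0.10, limma adjusted p = 0.00211), and STC2 stood at -0.83 (limma adjusted p = 0.0572). TGATGCA was in 14.8% of 27 promoters of that list, beside 2.16% of all. Of 20 aminoacyl-tRNA synthetases and 20 chaperones of the endoplasmic reticulum 0 passed at the adjusted p in limma (5 and 2 were lower at an unadjusted p under 0.05), and of 20 heat shock genes 1 did, the HSP90 partner CHORDC1 at -0.32. Among 24 NRF2 targets AKR1B10, an aldo-keto reductase, rose by 1.11 (SE 0.18, limma adjusted p = 0.00701) and its relatives AKR1C3 and AKR1C1 by 0.90 and 0.48, and GSR rose by 0.33 while UGDH fell by 0.37. The aldo-keto reductases resemble each other, so their values are uncertain singly. Among 11 metallothionein genes MT1F rose by 0.52. Among 25 p53 targets 3 rose (12%, near the 9.30% of all genes) and 0 fell, and the median was -0.06. The largest rise was that of the proapoptotic BBC3 at 0.93 (SE 0.11, limma adjusted p = 0.00297).

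The epithelial list had the highest median of the 33 gene lists, 0.28 over 25 genes. At the adjusted p 5 rose (20.0%, beside 9.30% of all genes) and 0 fell. The 3 runs differed, with medians of 0.42, 0.02 and 0.14. ELF3, an epithelial transcription factor, rose by 1.35 (SE 0.15, limma adjusted p = 0.00236), from -0.77, -2.07 and -2.15 in runs 1, 3 and 4 to 0.83, -0.97 and -0.81. It rose in each run, while the groups overlapped since run 1 was the higher run. Tight junction genes CLDN3, CGN and CLDN7 rose by 0.80, 0.67 and 0.31 and the keratin KRT15 by 0.43. Among the markers, NKX2-1 rose by 0.74 (limma adjusted p = 0.00485), and outside the epithelial markers 1 of 3 fibroblast, 1 of 4 leukocyte and 1 of 3 endothelial markers tested rose at the adjusted p, with PDGFRB at 1.02 and PECAM1 at 0.89. The summed signal of each list, in units of the array's 75th percentile, ran from 2.53 to 6.94 at 6 h and from 3.17 to 6.31 at 24 h for the fibroblast markers, from 2.62 to 4.10 and from 2.84 to 4.50 for the leukocyte markers, and from 0.0652 to 0.0784 and from 0.0824 to 0.103 for the endothelial markers. The lung epithelial markers summed to between 343 and 511 over both times, and the part of other cell types in the results was not tested. Of 30 genes of adhesion 3 fell (10%, beside 4.03% of all genes) and 1 rose (3.33%, beside 9.30%), ITGB8 by 0.70.

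Of 22 genes of antigen presentation 3 rose (13.6%, beside 9.30% of all genes) and 0 fell, and the median was 0.01. The rises were those of HLA-DMB by 0.88, the class II regulator CIITA by 0.85 and HLA-DMA by 0.56. Of 31 interferon-stimulated genes 1 was lower, OAS3 by 0.47, with a median of 0.01. In the lysosome and autophagy list 3 of 29 genes rose (10.3%), near the 9.30% of all genes. They were the regulator TFEB at 0.72, whose other probe stood at 0.13 (limma adjusted p = 0.653), CTSB at 0.38 and LAMP2 at 0.31. Of 30 genes of oxidative phosphorylation 0 passed at the adjusted p in limma, 1 was higher at an unadjusted p under 0.05, and the median was 0.07.

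**Figure D4:**
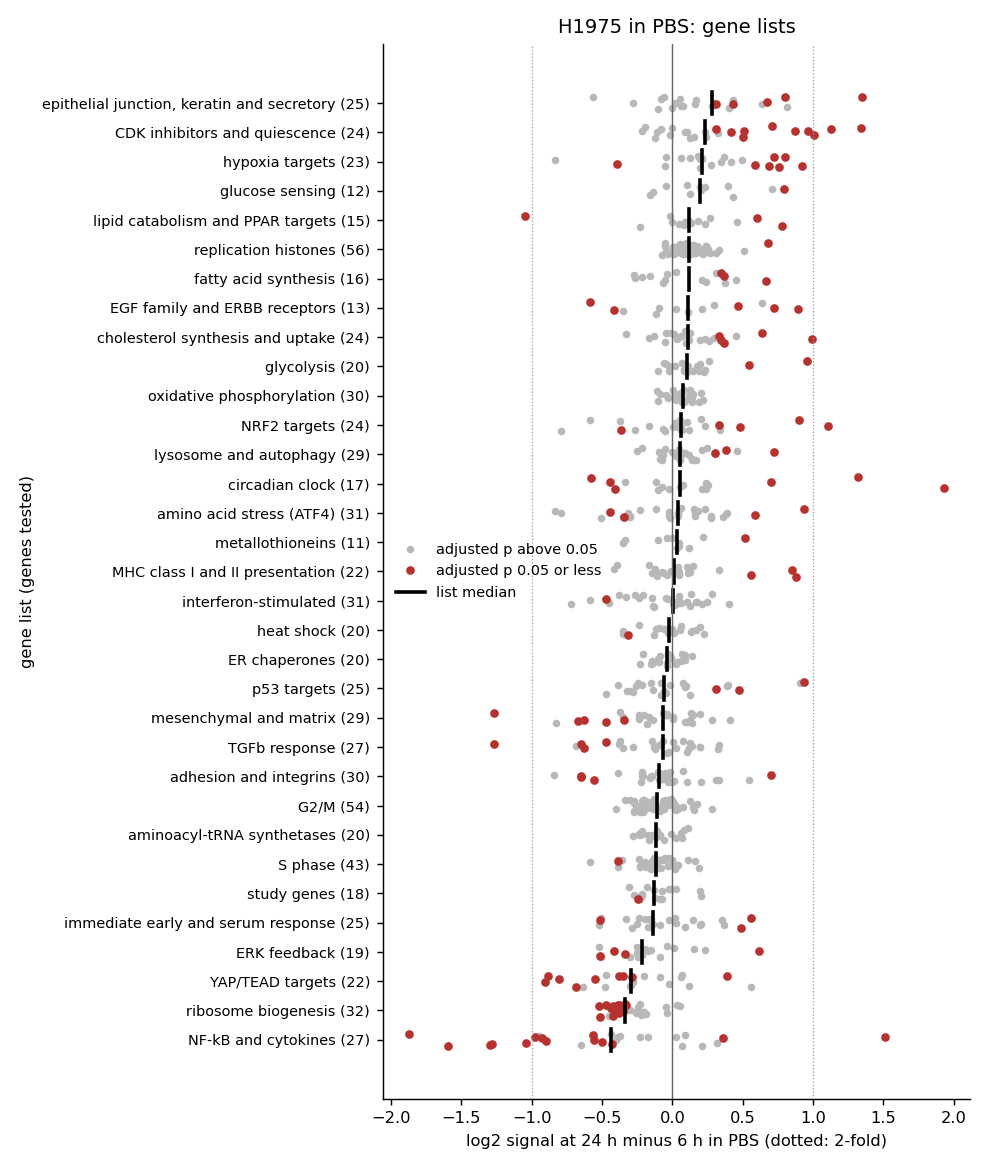
Difference between 24 h and 6 h in PBS on the log2 scale (horizontal axis) for each gene of the 33 lists (vertical axis, with the number of genes tested), ordered by list median (black bar). Genes at an adjusted p of 0.05 or less in limma are red, with 12 of 27 to the left in the NF-kB and cytokine list and 10 of 24 to the right in the list of CDK inhibitors and quiescence.

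The same time points were measured in H1975 with Pirfenidone and in A549 with PBS, on other arrays. The Pirfenidone arrays shared runs 1, 3 and 4 with the PBS arrays of H1975, but lay at place 1 for 6 h and place 3 for 24 h. Drug and place on the slide therefore cannot be told apart. The A549 PBS arrays lay on other slides, at the same place 2 for 6 h and place 4 for 24 h. By the same limits 852 probes (3.76%) passed with Pirfenidone, 547 higher (2.41%) and 305 lower (1.34%), and 108 of 23827 (0.453%) in A549, 47 higher (0.197%) and 61 lower (0.256%). The A549 count was 30 (0.126%) without both arrays of run 1. Of the 227 probes that rose in PBS 219 were also higher at 24 h with Pirfenidone, and of the 65 that fell 59 were also lower, where 51.3% of all probes were higher. The members were chosen on the PBS arrays, so these shares and the medians are descriptions: the probes that rose had a median of 1.24 with PBS and 1.06 with Pirfenidone, and those that fell had medians of -1.28 and -0.65. In A549 with PBS 195 of the 227 and 46 of the 65 went the same way, where 53.9% of all probes were higher. Restricted to probes well above background on all 6 A549 arrays, these were 96 of 110 and 27 of 31.

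Whether the time effect differed between PBS and Pirfenidone was tested as an interaction in H1975. In limma 72 of 22688 probes passed (0.317%), 31 with a time effect that was higher with the drug (0.137%) and 41 lower (0.181%), but with any 1 PBS array left out 1 to 5 passed. PTGS2 was past the threshold with each array left out (limma adjusted p from 0.00125 to 0.00984). It changed by -2.66 with PBS and by -0.64 with Pirfenidone, a difference of 2.02 ± 0.11 (SE, limma adjusted p = 8.20e-04). It did not pass with run as a random block (limma adjusted p = 0.0515) or with the normexp correction (0.79, limma adjusted p = 0.619). Nor did it pass with the replicate number as the block (limma adjusted p = 0.584) or with no block (limma adjusted p = 0.721). The cell cycle lists had medians of -0.12 (S phase) and -0.11 (G2/M) in PBS and of -0.76 and -1.12 with Pirfenidone over the same hours. In the test of the difference 0 of 43 S phase genes (lowest limma adjusted p = 0.0756) and 6 of 54 G2/M genes passed, and CDK1, AURKB, BIRC5 and MKI67 did not (limma adjusted p = 0.113, 0.101, 0.122 and 0.0575). CYP1A1 fell by 2.95 with PBS and also fell past the threshold with Pirfenidone (-1.26, limma adjusted p = 0.0322). The difference between both falls did not pass (1.70 ± 0.53, limma adjusted p = 0.137).

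Whether it differed between the lines was tested in a fit to all 24 arrays with line and run together as a block. In limma 63 of 23827 probes passed (0.264%), 40 with a time effect higher in H1975 (0.168%) and 23 lower (0.0965%). PTGS2 was lower by 2.93 ± 0.38 (SE, limma adjusted p = 0.00488) in H1975 relative to A549, where it stood at 0.27, and all its 12 arrays were well above background. ACSS1 was higher by 1.53 ± 0.23 (limma adjusted p = 0.00987), with 0.38 in A549, also above background throughout. For IL24, SERPINB2 and KRTAP2-3 the tests passed too (-1.84, -2.14 and -2.26), but no A549 array was well above background for these genes, so the values show a fall in H1975 beside a signal that could not be measured in A549. TFF1 stood at -1.91 in A549 as well (limma adjusted p = 0.00533), and at -1.97 without both A549 arrays of run 1 (limma adjusted p = 0.0644).

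**Figure D5:**
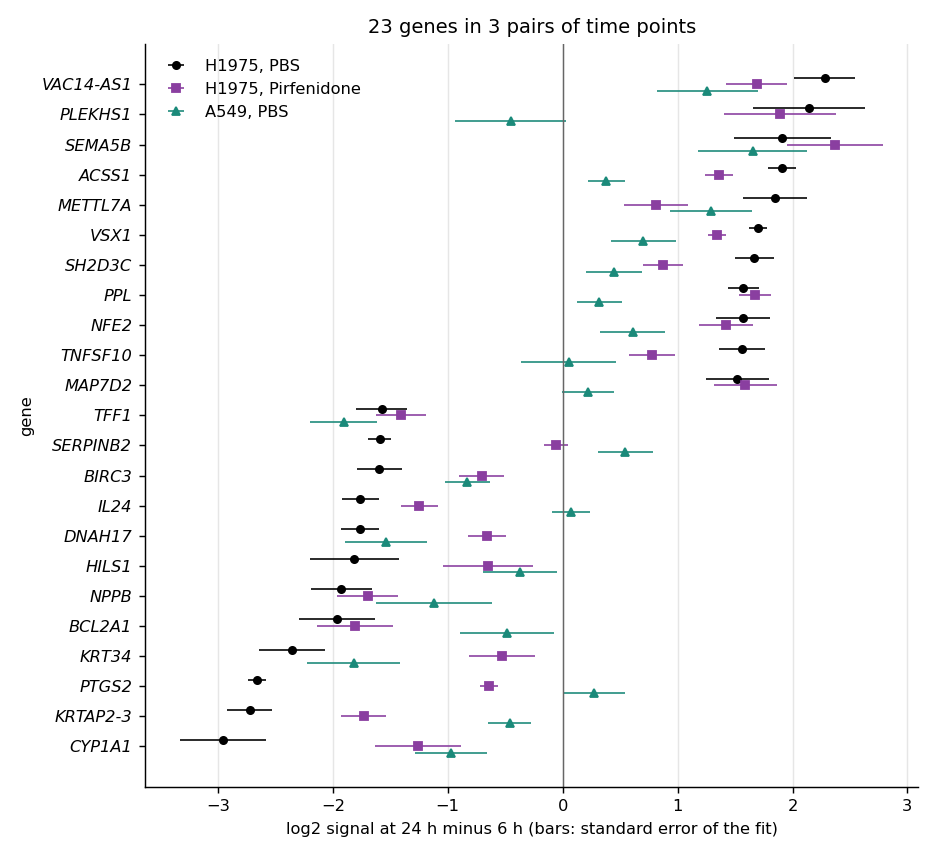
Difference between 24 h and 6 h on the log2 scale (horizontal axis) for the same 23 genes (vertical axis) in H1975 with PBS (black), H1975 with Pirfenidone (purple) and A549 with PBS (green), with the standard error of the fit. PTGS2 lies at -2.66 in H1975 with PBS, at -0.64 with Pirfenidone and at 0.27 in A549, and TFF1 lies below 0 in all 3 pairs.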

How the data were processed

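Total RNA of each sample was hybridized to an Agilent one-color array. The deposited scanner files, made by the authors with Agilent Feature Extraction version 11.5.1.1, hold background-subtracted intensity values on a linear scale, not normalized between arrays. The deposited table of log2 values of the same arrays served as an alternative, and its columns had medians between -0.162 and 0.155.

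The members, lists and tests were chosen with earlier results of these data known. From each log2 intensity the 75th percentile of the array was subtracted, taken over its 43118 spots other than controls. Spots marked as outliers were dropped, and the mean over the spots of a probe gave 34127 probes. Tests used limma version 3.58.1 in R version 4.3.3 on the 12 H1975 arrays with run as a block for 22688 probes that exceeded background clearly on each of the 3 arrays in 1 or more of the groups. The comparison of lines used all 24 arrays, with line and run together as a block, and 23827 probes. Probes passed at a log2 change of 1 or more and an adjusted p (Benjamini-Hochberg) up to 0.05. The steps were tested on simulated data. Runs pair the samples: deviations from the group means correlated at 0.67, 0.60 and 0.23 within runs 1, 3 and 4. The label replicate numbers do not (-0.66, 0.43 and -0.47).

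Genes named are the 12 largest rises and 12 largest falls among passing probes whose groups lay apart and whose signal exceeded background clearly on all 6 arrays, up to 4 that passed (or the 2 largest) of each list, up to 4 in each direction of each interaction, and the genes the study looked at. Others were named after their values were seen, and the results of some genes under this rule are not reported here. For probes not well above background on all arrays of a group, a lower bound was computed against the lowest signal among probes well above background on each array. Some probes that were not well above background lay higher than this, such as ARMC2 at 6 h (mean -7.31, beside -7.40 to -7.37). The bounds are therefore approximate. Symbols are those of the files, and 25819 of 28325 named probes matched a RefSeq transcript. Of 909 list names 905 were on the array. Positions are those of the files (hg19), and exons and untranslated regions of that build were not used here. Precision is limited by the number of arrays.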

Additional observations from a re-analysis of the deposited data

Results flagged for a closer look

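Results are listed here because the change from 6 h to 24 h differed between Pirfenidone and PBS or between the lines by the test of that difference in limma. The values are differences of log2 changes.

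Between Pirfenidone and PBS in H1975, 72 probes passed, in a comparison where drug and place on the slide cannot be told apart. Higher with the drug were PTGS2 (2.02), SERPINB2 (1.54), CTGF (1.52), ANGPTL4 (1.68), NDUFA4L2 (2.27), TUSC5 (2.09) and CSTA (1.86). Lower with the drug were FAM49A (-1.81), VSTM1 (-1.78), SMIM5 (-1.77) and SP8 (-1.66). NDUFA4L2 was well above background on 0 of 6 PBS arrays. With Pirfenidone its approximate lower bound was a 1.89-fold higher signal at 24 h than at 6 h, where 0 of 3 arrays were well above background. For TUSC5 the same approximate bound was 1.38-fold higher at 24 h with Pirfenidone. The drug comparison reversed for both genes with the normexp correction.

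Between H1975 and A549 in PBS, 63 probes passed. The change was higher in H1975 for ACSS1 (1.53), AKR1B10 (1.02), PRSS8 (2.42), TJP3 (2.33), GUCA2B (2.27) and HCAR3 (2.16). It was lower in H1975 for PTGS2 (-2.93), KRTAP2-3 (-2.26), IL24 (-1.84), SERPINB2 (-2.14), CCDC85A (-2.46) and CCL3 (-2.20). For TJP3, a tight junction protein, and CCL3, a chemokine, 0 of 3 H1975 arrays were well above background in the dimmer group. Their approximate lower bounds were 4.14-fold higher at 24 h for TJP3 and 1.74-fold lower for CCL3. CCDC85A and GUCA2B were well above background on 0 of 6 PBS arrays of H1975, so their differences rest on A549, where CCDC85A was 2.02-fold higher and GUCA2B 2.99-fold lower at 24 h.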

How the results depend on the processing

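Neither time in culture nor drug can be told apart from the place of the array on its slide. The precision is limited by 3 arrays a group, and dim probes carried most changes. The 292 probes became 0 with the normexp correction, 183 where all 6 arrays had to be well above background, 179 in a fit to the 6 PBS arrays, 2740 with no fold limit, 30 by Holm adjustment and 0 by the methods' t-test after Benjamini-Hochberg (228 unadjusted). Quantile normalization gave 253, of which 169 were higher (66.8%, beside 77.7% of the 292). Leaving out 1 array gave 223 to 302, and leaving out run 3 gave 8 and run 4 gave 7.

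The run pairs the samples and the replicate number does not: with the replicate number as the replicate block in place of run 68 passed, and with no block 79. For the drug comparison these gave 0 and 0, and for the lines 7 and 6. The 72 probes of the drug comparison became 0 with normexp, 1 with no filter, 1 with slide as the block, 134 with run as a random block, 191 with no fold limit, 1 by Holm adjustment and 1 to 5 without 1 PBS array. The 63 probes of the line comparison became 0 with normexp and 23 to 94 without 1 array. Under normexp the drug comparison reversed for NDUFA4L2 (-0.87), TUSC5 (-0.97) and CSTA (-0.073), and the cause was not tested.

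Without run 3 or run 4, 0 genes passed at the adjusted p in the NF-kB, ribosome, quiescence, YAP/TEAD, hypoxia, cholesterol and epithelial lists (limma, a setting chosen after seeing the data). List medians also moved. With normexp they were -0.0096 (clock), -0.13 (tRNA synthetases), 0.0098 (metallothioneins) and -0.043 (adhesion). With quantile normalization they were -0.030 (clock), -0.096 (tRNA synthetases), -0.022 (metallothioneins) and -0.15 (mesenchymal). With the authors' values they were -0.14 (tRNA synthetases), 0.03 (NRF2), 0.0023 (metallothioneins) and -0.12 (adhesion). The percentile over detected probes gave 0.027 (metallothioneins), and averaging the probes of a gene gave -0.10 (tRNA synthetases) and -0.14 (mesenchymal). Leaving out 1 array gave medians of -0.18 to 0.013 (S phase), -0.18 to -0.013 (G2/M), 0.0034 to 0.20 (replication histones), -0.00893 to 0.084 (circadian clock), 0.10 to 0.20 (fatty acid synthesis), 0.084 to 0.19 (glycolysis), 0.20 to 0.33 (hypoxia targets), -0.12 to -0.090 (aminoacyl-tRNA synthetases), -0.091 to 0.00219 (ER chaperones), -0.051 to 0.043 (heat shock), 0.00497 to 0.091 (NRF2 targets), -0.023 to 0.065 (metallothioneins), -0.11 to 0.000263 (p53 targets), 0.065 to 0.12 (lysosome and autophagy), -0.17 to -0.087 (mesenchymal and matrix), -0.14 to -0.082 (adhesion and integrins), 0.031 to 0.14 (oxidative phosphorylation) and -0.19 to -0.035 (study genes).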
